A study of Saccharomyces cerevisiae with 6 samples.

Results

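The cytosolic ribosomal protein genes were taken as every gene whose array symbol begins with RPL, RPS, RPP0, RPP1 or RPP2 followed only by its number and paralog letter. The pattern picked out 128 of the 5449 S. cerevisiae genes measured. RPP1, a protein subunit of the RNA-cutting enzymes RNase P and RNase MRP, entered by its name alone and was kept apart. The remaining 127 genes comprised 75 of the large subunit and 52 of the small subunit, and they were covered by 148 of the 5498 probe sets. Where a gene had several probe sets, the set with the highest mean over the 6 arrays stood for it. Among these genes were 100 members of 50 complete A and B paralog pairs, 18 genes present in a single copy, and 9 genes whose partner was not analysed here (RPL1B, RPL7A, RPL18B, RPL35A, RPL41A, RPL42B, RPS4B, RPS6B and RPS30A). A RefSeq gene table lists 137 such genes, and the other 10 were likewise not analysed here.

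P5 is a wine yeast that came to dominate a competition among 27 commercial wine strains in synthetic grape must at 12 °C. P5-EM is the strain recovered from that culture after treatment with the mutagen ethyl methanesulfonate and 200 generations of growth at the same temperature. It is a single evolved strain, so the effects of mutagenesis, of selection and of the particular isolate cannot be told apart. RNA was taken from 3 independent cultures of P5 and 3 of P5-EM in exponential growth during fermentation at 12 °C, amplified from 25 ng over 17 cycles and hybridised to 1 Affymetrix Yeast Genome 2.0 array per culture. All cultures were sampled at a single time, so a difference of strain and a difference in how far fermentation had gone cannot be told apart. In a bulk culture, fewer cells expressing a gene and less RNA per cell also cannot be told apart.

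Yeast ribosomes carry a set of proteins on each subunit, and whole genome duplication left most of these proteins with a pair of nearly identical genes. Transcription of the family is driven mainly by Rap1 with Fhl1 and Ifh1, follows nutrient signals through the TOR and protein kinase A pathways, and takes up a large part of the transcription of a growing cell. Ribosome assembly factors, which build the subunits but do not stay in them, usually rise and fall together with the ribosomal proteins.

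Levels are log2 hybridisation signals after RMA normalization, so a difference of 1 is a 2-fold change, and differences are P5-EM minus P5 throughout. Background was the 95th percentile of probe sets for S. pombe, a yeast that was not in these cultures, and it lay between 2.28 and 2.60 on the 6 arrays. All 127 ribosomal protein genes were above it on every array. Their signals stood at a median percentile of 70.4 among the genes of the array, and the lowest, RPL39, stood at 12.9. Over all genes, pairs of P5 arrays had r between 0.992 and 0.996, P5-EM replicates 2 and 3 had 0.990, and P5-EM replicate 1 had 0.953 and 0.967 with these, so P5-EM replicate 1 stood apart. Without it the difference between strains moved by over 1.5 times in 53 of the 127 genes, and for the genes named below of which this holds both values are given.

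The ribosomal protein genes stood above the P5 mean on each P5-EM array, by very different amounts. Set against the mean of the P5 arrays, the median over the 127 genes was 1.58 on P5-EM replicate 1, 0.95 on replicate 2 and 0.28 on replicate 3. The P5 arrays themselves stood at 0.19, -0.08 and -0.10. Thus the lowest P5-EM array exceeded the highest P5 array by less than the P5-EM arrays differed from each other. The median over all genes was -0.10, -0.01 and 0.02 on the same P5-EM arrays.

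The genes kept to this order almost as a block. On P5-EM replicate 1, 125 of the 127 genes lay above all 3 P5 arrays, on replicate 2 it was 124, and on replicate 3 it was 79. The like counts over all probe sets were not taken for single arrays. For all 3 P5-EM arrays at once the share was 21.1% of all probe sets, beside 79 of the 127 genes. P5-EM replicate 3 gave the lowest of the P5-EM values in 126 genes, RPL15B being the exception, and P5-EM replicate 1 gave the highest in 116. Over all 5449 genes, P5-EM replicate 3 was lowest in 1464 and P5-EM replicate 1 highest in 1936. In P5, replicate 1 was the highest in 116 genes, beside 2399 of all 5449. The median SD of a gene was 0.17 in P5 and 0.64 in P5-EM (n = 3 each), against 0.12 and 0.22 over all genes. The spread within P5-EM was therefore far wider for ribosomal protein genes than for the typical gene.

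**Figure D1:**
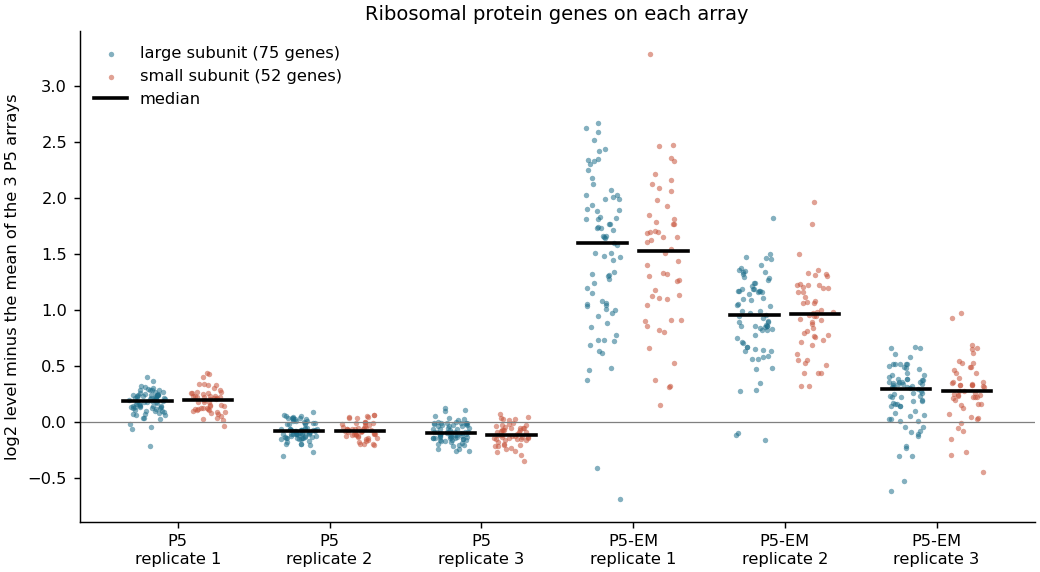
Log2 level of each ribosomal protein gene minus its mean over the 3 P5 arrays (y axis), for the 6 arrays (x axis), with large subunit genes in blue, small subunit genes in red and medians as black bars. The medians of the P5-EM arrays descend from near 1.6 through 0.95 to near 0.3, and the subunits sit side by side on every array.

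Large and small subunit genes stood equally high. On the P5-EM arrays the large subunit median was 1.59, 0.95 and 0.30 above the P5 mean, and the small subunit median was 1.53, 0.96 and 0.28. Large minus small was 0.07, -0.01 and 0.02 on these arrays and between -0.02 and 0.01 on the P5 arrays. The gap between subunits was thus small beside the gap between any pair of P5-EM replicates. Averaged over replicates, the median difference between strains was 0.92 for the large subunit and 0.91 for the small one, beside -0.04 for all genes.

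Most genes had a positive difference, but few passed the test over all genes. The mean was higher in P5-EM for 124 of the 127 genes (46.4% of all probe sets had a mean difference above 0), and it was at least 2-fold higher for 56 (2.46% of all probe sets). In the limma fit with Benjamini-Hochberg adjustment, 9 genes rose at an adjusted p of 0.05 or less. This share of the 127 was close to the 6.09% of all probe sets called higher. No ribosomal protein gene fell, where 7.78% of probe sets were called lower. At an unadjusted p under 0.05, 95 genes were higher (16.4% of all probe sets) and 2 were lower (18%), and the other tests and scalings tried called none lower. A further 60 genes had adjusted p between 0.05 and 0.10 in limma, beside 610 of all 5449 genes. With a 2-fold limit added, 7 genes were called, 2 of the large and 5 of the small subunit, against 1.33% of probe sets. All 3 P5-EM arrays lay above all 3 P5 arrays in 79 genes (21.1% of probe sets) and below them in 2 (24.6%), while the strains overlapped in 46.

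The count of calls moved strongly with single arrays. Without P5-EM replicate 3, whose values lay closest to P5, 112 ribosomal protein genes were called higher, 66 of the large and 46 of the small subunit, beside 8.42% of all probe sets, and the median difference was 1.27. Without P5-EM replicate 1 the count was 53, 31 large and 22 small, beside 12.2%, and the median difference was 0.63. Without P5-EM replicate 2 and without P5 replicate 1 it was 1, beside 0.782% and 1% of all probe sets. Without P5 replicate 2 or 3 it was 0, although 48 and 47 genes then still were higher at an unadjusted p under 0.05, beside 11.9% and 10% of all probe sets. Across all genes, 0 probe sets passed without either of those P5 arrays. The methods' t-test called 0 of the 127 higher after Benjamini-Hochberg adjustment (1.11% of all probe sets) and 30 before it (14.5%).

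**Figure D2:**
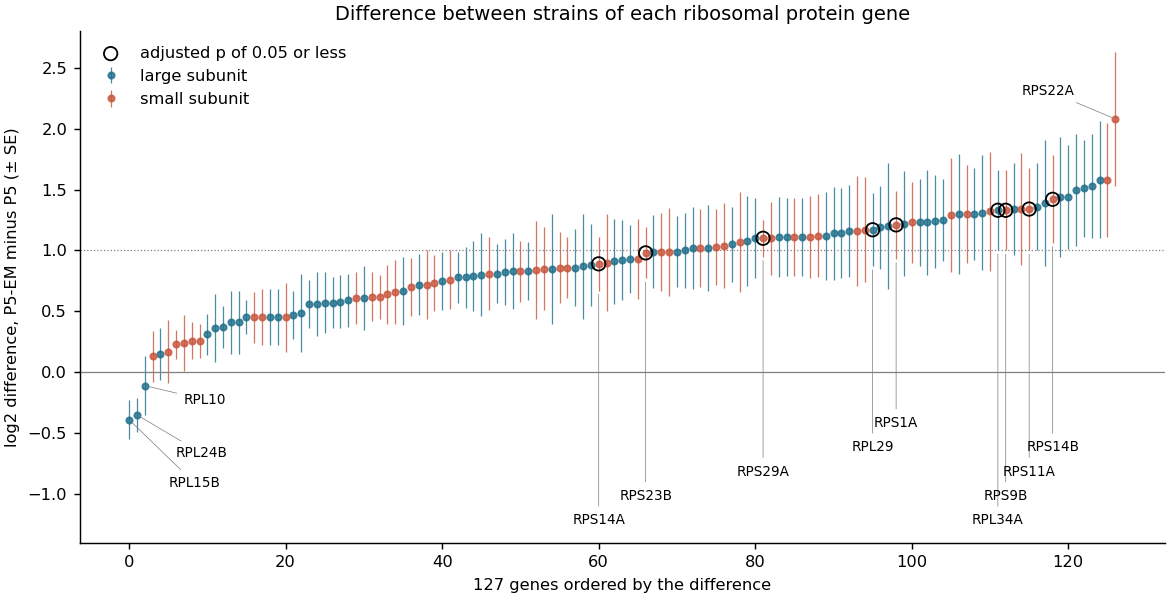
Difference between strains (P5-EM minus P5, log2, y axis) of the 127 ribosomal protein genes in rising order (x axis), with bars for the limma SE, blue for the large and red for the small subunit, and rings for the 9 genes called. Almost all points lie above 0, the ringed genes are spread over the upper part of the order, and RPL15B, RPL24B and RPL10 lie below 0.

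Of the 9 called genes, 7 were among the 52 of the small subunit and 2 among the 75 of the large one, beside 6.09% of all probe sets. The median differences of the subunits were nonetheless alike, at 0.91 and 0.92. RPS29A, a small zinc-binding protein of the small subunit, read 7.96, 7.87 and 7.67 on the P5 arrays and 8.88, 9.17 and 8.77 on the P5-EM arrays. The strains lay far apart, and the P5-EM replicates lay close to each other, unlike those of most of the family. RPS29A rose by 1.10 (SE 0.15, n = 3 per strain, adjusted p = 0.0111, limma), or 2.15-fold. Its other probe set rose by 1.09 (adjusted p = 0.0108, limma), and its call held in each fit that left out a P5-EM array, being lost without P5 replicate 2 or 3. RPS29A and RPS1A are also in the study's own list of changed genes, which came from these same arrays.

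RPS1A, which lies near the exit of the mRNA on the platform of the small subunit, read 9.26, 8.86 and 8.75 in P5 and 10.64, 10.26 and 9.61 in P5-EM. The lowest P5-EM array still exceeded the highest P5 array. RPS1A rose by 1.21 (SE 0.28, adjusted p = 0.0385, limma). RPS9B, at the entry of the mRNA channel, read 9.92, 9.54 and 9.51 in P5 and 11.64, 11.01 and 10.32 in P5-EM, and it rose by 1.33 (SE 0.33, adjusted p = 0.0429). The strains did not overlap here either, and P5-EM replicate 3 again stood nearest to P5.

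RPS23B, whose protein reaches into the decoding centre, read 7.32, 7.09 and 7.04 in P5 and 8.40, 8.30 and 7.67 in P5-EM, and it rose by 0.98 (SE 0.21, adjusted p = 0.0331, limma). Its partner RPS23A is described with the pairs.

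RPS14 was the only pair of which both genes were called. Its protein sits on the platform of the small subunit, and in yeast an excess of it is known to act back on the RPS14B transcript. RPS14A read 9.88, 9.75 and 9.86 in P5 and 11.16, 10.72 and 10.29 in P5-EM, a rise of 0.89 (SE 0.22, adjusted p = 0.0429, limma). RPS14B read 8.32, 8.22 and 8.15 in P5 and 10.39, 9.73 and 8.85 in P5-EM, a rise of 1.42 (SE 0.36, adjusted p = 0.0458). In both genes every P5-EM array lay above every P5 array. RPS11A, whose protein binds early to the RNA of the small subunit, read 8.59, 8.44 and 8.29 against 10.56, 9.66 and 9.12, a rise of 1.34 (SE 0.34, adjusted p = 0.0472).

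Of the large subunit, RPL34A and RPL29 passed the test. RPL34A read 8.02, 7.78 and 7.53 in P5 and 9.78, 9.12 and 8.43 in P5-EM, and it rose by 1.33 (SE 0.33, adjusted p = 0.0446, limma). RPL29, a single-copy gene that yeast can live without, read 7.78, 7.63 and 7.56 in P5 and 9.39, 8.94 and 8.14 in P5-EM, and it rose by 1.17 (SE 0.30, adjusted p = 0.0480). The strains were apart in both. Of the 9 called genes, the 8 other than RPS29A lost their call without P5-EM replicate 2 and without each P5 array in turn, with adjusted p up to 0.173 (limma, RPL29 and RPS11A).

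The largest mean difference in the family narrowly missed the threshold in the limma fit. RPS22A, a protein of the small subunit, read 6.14, 5.56 and 5.40 in P5 and 8.99, 7.66 and 6.68 in P5-EM. The strains did not overlap, yet the P5-EM arrays differed from each other by more than the lowest of them differed from P5. The difference was 2.08 (SE 0.55, adjusted p = 0.0523, limma), or 4.22-fold. The adjusted p was 0.0364 after quantile normalization, 0.0476 with an intensity trend, 0.0460 with the replicate block and 2.64e-05 with array weights. It was 0.0121 without P5-EM replicate 1 and 0.0169 without P5-EM replicate 3, and between 0.119 and 0.183 without each of the other arrays.

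Only RPL15B, RPL24B and RPL10 had a lower mean in P5-EM, and none of them passed the test. RPL15B read 9.31, 9.33 and 9.17 in P5 and 8.58, 9.11 and 8.96 in P5-EM, with P5-EM replicate 1 the lowest. All its P5-EM values lay below P5, with a difference of -0.39 (SE 0.16, adjusted p = 0.140, limma), or -0.24 without P5-EM replicate 1. RPL24B read 8.89, 8.84 and 9.01 in P5 and 8.51, 8.80 and 8.39 in P5-EM. These were also all below P5, although P5-EM replicate 2 was only just so, and the difference was -0.35 (SE 0.14, adjusted p = 0.132). RPL10, a single-copy gene for the protein that joins the large subunit last, read 9.79, 9.90 and 9.89 in P5 and 10.23, 9.76 and 9.24 in P5-EM. Its P5-EM arrays lay on both sides of P5, with a difference of -0.11 (SE 0.24, adjusted p = 0.756), or -0.36 without P5-EM replicate 1.

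**Figure D3:**
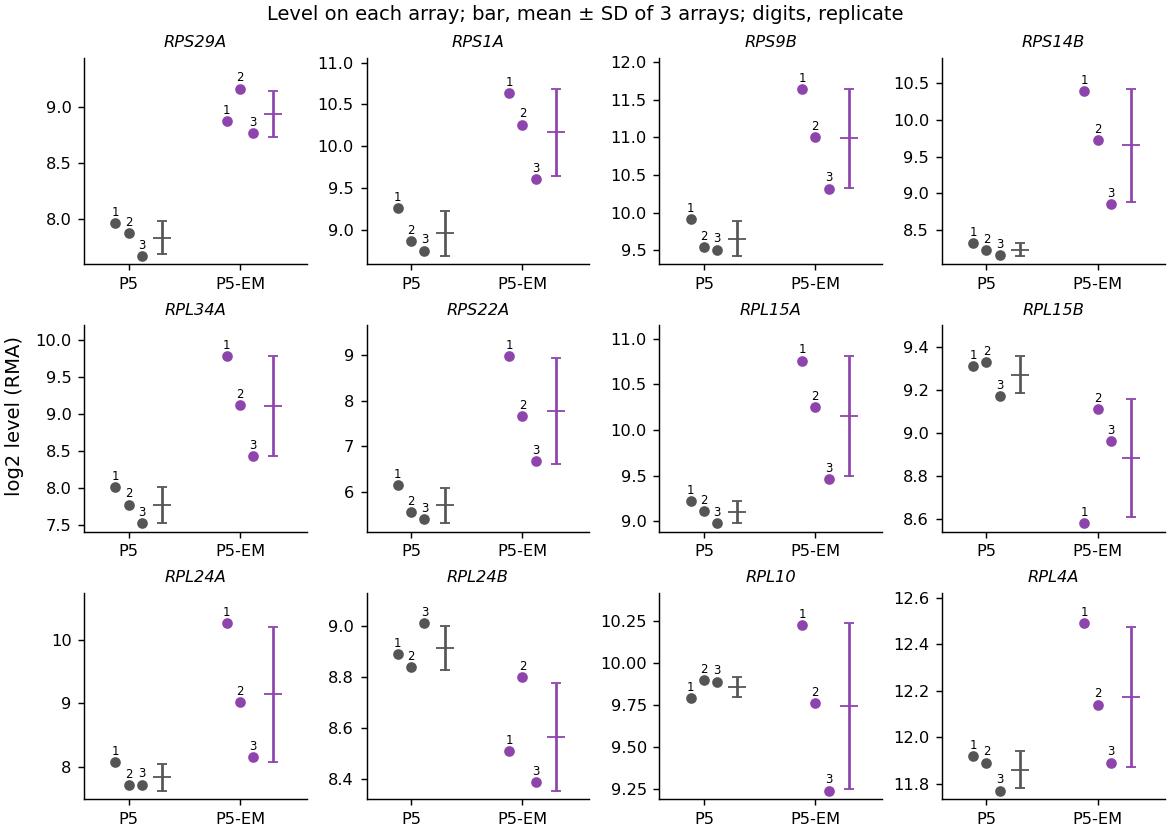
Log2 RMA level (y axis, a scale of its own in each panel) on each array of P5 (grey) and P5-EM (purple) for 12 ribosomal protein genes, with digits for replicates and bars for the mean ± SD of 3 arrays. In RPS29A the P5-EM arrays lie close together and far above P5, in RPL15B and RPL24B they lie below P5, and in most other panels P5-EM replicate 1 is highest and replicate 3 lowest.

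The stalk of the large subunit, which recruits the translation factors, is built from RPP0, the acidic P1 and P2 proteins and RPL12. Its 7 genes had a median difference of 0.87, and 6 of them were higher without overlap between strains, beside 21.1% of all probe sets. None passed the test in limma, although 6 had an unadjusted p under 0.05, beside 16.4% of all probe sets that were higher at this level. RPP0, which anchors the stalk, read 10.59, 10.27 and 10.28 in P5 and 11.72, 11.24 and 10.64 in P5-EM, so that P5-EM replicate 3 barely cleared P5 replicate 1. The difference was 0.82 (SE 0.27, adjusted p = 0.0905). RPL12A, at the stalk base, came closest to the threshold with 8.45, 8.30 and 8.01 against 10.60, 9.75 and 8.92, a difference of 1.51 (SE 0.40, adjusted p = 0.0510). Its paralog RPL12B differed by 0.72 (SE 0.25, adjusted p = 0.0953).

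The paralogs of the acidic proteins had unequal differences. RPP2A differed by 1.44 (SE 0.43, adjusted p = 0.0679, limma) and RPP2B by 0.56 (SE 0.20, adjusted p = 0.102). RPP1B differed by 1.25 (SE 0.34, adjusted p = 0.0555) and RPP1A by 0.87 (SE 0.43, adjusted p = 0.197, and 0.42 without P5-EM replicate 1), RPP1A being the stalk gene that overlapped. The gene RPP1, matched by name only, read 5.96, 6.21 and 5.68 in P5 and 5.91, 5.55 and 5.63 in P5-EM. It thus overlapped between strains, with a difference of -0.25 (SE 0.17, adjusted p = 0.333).

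The genes whose product is made as a fusion with ubiquitin had a median difference of 1.11, with none of the 3 called in limma and 2 higher at an unadjusted p under 0.05, where 16.4% of all probe sets stood. RPS31 read 9.49, 9.29 and 9.26 in P5 and 11.12, 10.57 and 9.68 in P5-EM, and the strains were apart (1.11, SE 0.34, adjusted p = 0.0742). RPL40B differed by 1.31 (SE 0.47, adjusted p = 0.108), or 0.80 without P5-EM replicate 1. RPL40A differed by 0.85 (SE 0.45, adjusted p = 0.219), its P5-EM replicate 3 at 8.48 falling among P5 values of 8.73, 8.41 and 8.64, and it differed by 0.36 without P5-EM replicate 1.

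RPL5 and RPL11 enter the large subunit together with the 5S RNA. RPL5, a single-copy gene, read 11.36, 11.11 and 11.10 in P5 and 12.20, 11.78 and 11.37 in P5-EM, a difference of 0.59 (SE 0.22, adjusted p = 0.111, limma), or 0.39 without P5-EM replicate 1. RPL11A differed by 1.24 (SE 0.38, adjusted p = 0.0743) and RPL11B by 1.02 (SE 0.35, adjusted p = 0.0978), or 0.68 without P5-EM replicate 1. All 3 were higher at an unadjusted p under 0.05 (16.4% of all probe sets) and none was called.

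Proteins that line or ring the exit of the peptide tunnel had a median difference of 0.81 over 13 of 14 listed genes measured, with none called in limma and 7 higher at an unadjusted p under 0.05, beside the same 16.4%. A list of proteins along the path of the mRNA had a median of 0.76 over 14 of 16, with RPS14A, RPS14B and RPS23B called higher, beside 6.09% of all probe sets. RPS1A and RPS9B, also near the mRNA, were not on that list. RPL39, in the wall of the tunnel, read 5.04, 4.93 and 4.72 in P5 and 6.78, 6.11 and 5.21 in P5-EM, a difference of 1.14 (SE 0.37, adjusted p = 0.0862). Genes present in a single copy had a median difference of 0.82 (18 genes, 1 called) and members of pairs 0.95 (100 genes, 8 called). Both shares called were close to the 6.09% of all probe sets. The medians of these groups thus lay between 0.76 and 1.11, around the 0.92 of the whole family.

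Comparing paralogs within an array removes whatever moves both genes alike on that array. For each of the 50 pairs the log2 signal of A minus that of B was taken on every array and compared between strains. A signal depends on the probes as well as on the RNA, so only the change in A minus B between strains is read, and not whether A minus B lies above or below 0. The A gene had the larger difference between strains in 26 pairs and the B gene in 24, and the median change in A minus B was 0.03. The letters therefore showed no common direction. The median size of the change was 0.34, and in 16 pairs it exceeded 0.5.

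In 37 of the 50 pairs (74%) the 3 P5-EM values of A minus B did not overlap the 3 P5 values, 20 being higher and 17 lower. The same comparison between the 2 probe sets of a single gene gave no overlap in 6 of 20 genes (30%). In each of these 20 genes, a set that can bind RNA of related genes was compared with a gene-specific set. This share is therefore not free of paralog signal. Each of the pairs apart has an exact two-sided permutation p of 0.1, the smallest that 3 arrays against 3 can give, so no pair can pass 0.05. Both members differed in the same direction in 48 pairs, the exceptions being RPL15 and RPL24. In 6 pairs a single member was called, and in RPS14 both were. These calls covered 8 of the 100 members, a share close to the 6.09% of all probe sets called higher.

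The widest parting of paralogs was in RPL24, a protein at the bridge between subunits that joins the large one late, in the cytoplasm. A minus B was -0.81, -1.13 and -1.28 in P5 and 1.75, 0.23 and -0.24 in P5-EM. All P5-EM arrays lay above P5, with P5-EM replicate 1 farthest away. RPL24A read 8.08, 7.71 and 7.72 in P5 and 10.26, 9.02 and 8.15 in P5-EM (1.30, SE 0.49, adjusted p = 0.116, limma, and 0.75 without P5-EM replicate 1), while RPL24B had the negative difference given above. The change in A minus B was 1.66 and ranged from 1.07 to 2.06 when arrays were left out in turn.

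In RPL15, a large subunit protein whose A gene is essential in laboratory yeast, A minus B was -0.08, -0.22 and -0.20 in P5 and 2.18, 1.14 and 0.50 in P5-EM. These sets of values were again apart. RPL15A read 9.22, 9.11 and 8.98 in P5 and 10.76, 10.25 and 9.46 in P5-EM (1.05, SE 0.31, adjusted p = 0.0682, limma). The change was 1.44, with 0.99 to 1.83 over the arrays left out.

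Among small subunit pairs, A minus B was higher in P5-EM in RPS21, RPS7 and RPS22 by about the same amount. For RPS21, A minus B was 0.99, 1.05 and 0.95 in P5 and 2.90, 1.87 and 1.42 in P5-EM, a change of 1.07. RPS21A differed by 1.30 (SE 0.40, adjusted p = 0.0730, limma), or 0.84 without P5-EM replicate 1, whereas RPS21B read 5.84, 5.65 and 5.68 against 6.03, 6.05 and 5.79 (0.23, SE 0.12, adjusted p = 0.226). For RPS7, A minus B went from -0.23, -0.47 and -0.55 in P5 to 1.52, 0.28 and 0.04 in P5-EM, a change of 1.03. RPS7A differed by 1.16 (SE 0.45, adjusted p = 0.127), or 0.69 without P5-EM replicate 1, and RPS7B by 0.13 (SE 0.21, adjusted p = 0.691).

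RPS22 includes RPS22A, which had the largest difference of the family. Its A minus B was -1.76, -2.03 and -2.27 in P5 and -0.38, -1.26 and -1.48 in P5-EM, a change of 0.98. RPS22B differed by 1.10 (SE 0.30, adjusted p = 0.0555, limma), so both paralogs were higher and the A gene by more. Left-out arrays gave 0.65 to 1.39 for RPS21, 0.58 to 1.32 for RPS7 and 0.65 to 1.2 for RPS22.

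A minus B was lower in P5-EM in RPL22 and RPL43, which had gene-specific probe sets on both sides. RPL22 protein is known in yeast to bind the RPL22B transcript and hold back its splicing. Its A minus B was 0.61, 0.26 and 0.28 in P5 and -0.91, -0.49 and -0.03 in P5-EM, a change of -0.86. RPL22B read 6.69, 6.52 and 6.58 in P5 and 8.90, 8.41 and 7.07 in P5-EM (1.53, SE 0.43, adjusted p = 0.0610, limma). RPL22A overlapped between strains, with a difference of 0.67 (SE 0.28, adjusted p = 0.148). For RPL43, a zinc-binding protein of the large subunit, A minus B was 2.93, 2.92 and 2.86 in P5 and 1.97, 2.28 and 2.48 in P5-EM, a change of -0.66. Over the arrays left out, the change ran from -1.08 to -0.64 in RPL22 and from -0.78 to -0.53 in RPL43.

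A minus B was also lower in P5-EM in RPS26, RPL4 and RPS23, but their A gene was read from a probe set that can bind RNA of related genes. RPS26, at the mRNA exit, had A minus B of 2.32, 2.36 and 2.65 in P5 and 0.89, 1.28 and 1.76 in P5-EM, a change of -1.13. RPS26B differed by 1.58 (SE 0.47, adjusted p = 0.0668, limma) and RPS26A by 0.45 (SE 0.28, adjusted p = 0.286), or 0.22 without P5-EM replicate 1. Its gene-specific set gave RPS26A a like difference of 0.46, and the change in A minus B stayed between -1.36 and -0.92 over the arrays left out.

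RPL4, which extends into the peptide tunnel, had A minus B of 4.53, 4.87 and 4.61 in P5 and 2.86, 4.0 and 4.47 in P5-EM. P5-EM replicate 3 lay just under P5, and the change of -0.89 ran from -1.24 to -0.44 over the arrays left out. RPL4A had the highest signal of the family, with 11.92, 11.89 and 11.77 in P5 and 12.49, 12.14 and 11.89 in P5-EM (0.31, SE 0.17, adjusted p = 0.236, limma). Without P5-EM replicate 1 the differences of RPL4A and RPL4B were 0.15 and 0.59. For RPS23 the change was -0.71, RPS23B being called and RPS23A differing by 0.26 (SE 0.15, adjusted p = 0.249). A gene-specific set gave RPS23A a difference of 0.92 instead, so the parting of this pair depends on the probe set.

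**Figure D4:**
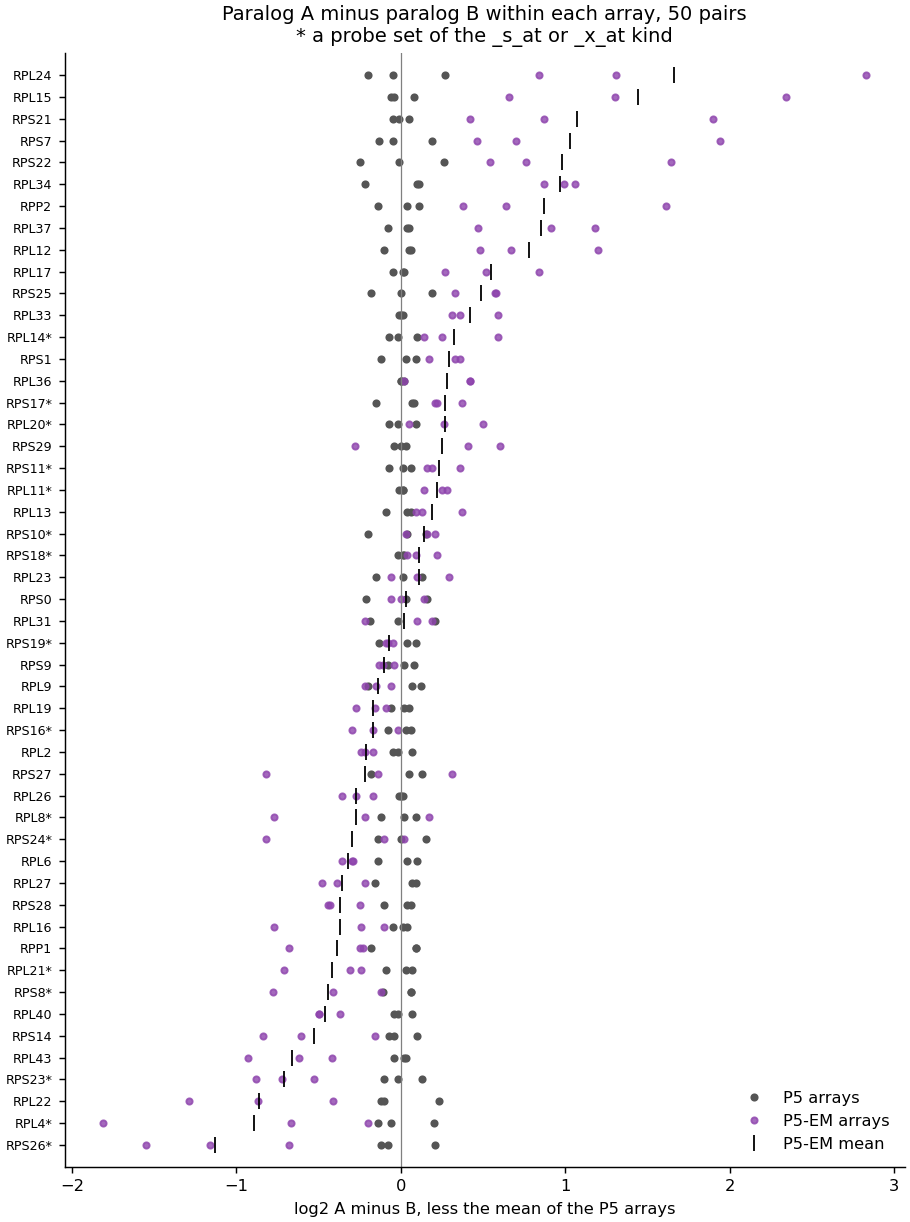
Log2 signal of paralog A minus paralog B on each array, less its mean over the P5 arrays (x axis), for the 50 pairs in order of the change (y axis), with P5 arrays in grey, P5-EM arrays in purple and their mean as a black tick. RPL24 and RPL15 stand at the top with changes of 1.66 and 1.44, RPS26 at the bottom with -1.13, and stars mark pairs read from a probe set that can bind related genes.

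How far probe sets of 1 gene part gives a rough scale for these values, since each such comparison includes a set that can bind related genes. Of the 127 genes, 101 were read from gene-specific probe sets, 22 from sets shared between related genes and 4 from sets with possible cross-hybridisation. In the 34 pairs read from gene-specific sets on both sides, the median size of the change was 0.38. For the 20 genes with a second probe set, the differences between strains given by the 2 sets were apart by 0.15 in the median and by 0.71 at most, in RPS17B (0.90 and 0.19, the former 0.51 without P5-EM replicate 1). The sets of RPS19B fell on either side of the threshold, with 0.83 (adjusted p = 0.0679, limma) in the set that stood for the gene and 1.08 (adjusted p = 0.0446) in the other.

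Genes with a lower signal in P5 had larger differences. The median difference was 1.17 for the 46 genes below 8, 0.86 for the 60 genes from 8 to 10 and 0.64 for the 21 genes at 10 or above. Over all genes the corresponding medians lay between -0.06 and -0.01. Across the 127 genes, difference and P5 level had a Pearson r of -0.47 and a Spearman rho of -0.52, a description across genes measured on the same arrays, where the P5 level also enters the difference. Over all genes r was 0.05. Within pairs, the member with the lower signal had the larger difference in 40 of 50, and within genes with 2 probe sets the set with the lower signal did so in 13 of 20. The part of signal strength in the differences between paralogs was not tested.

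**Figure D5:**
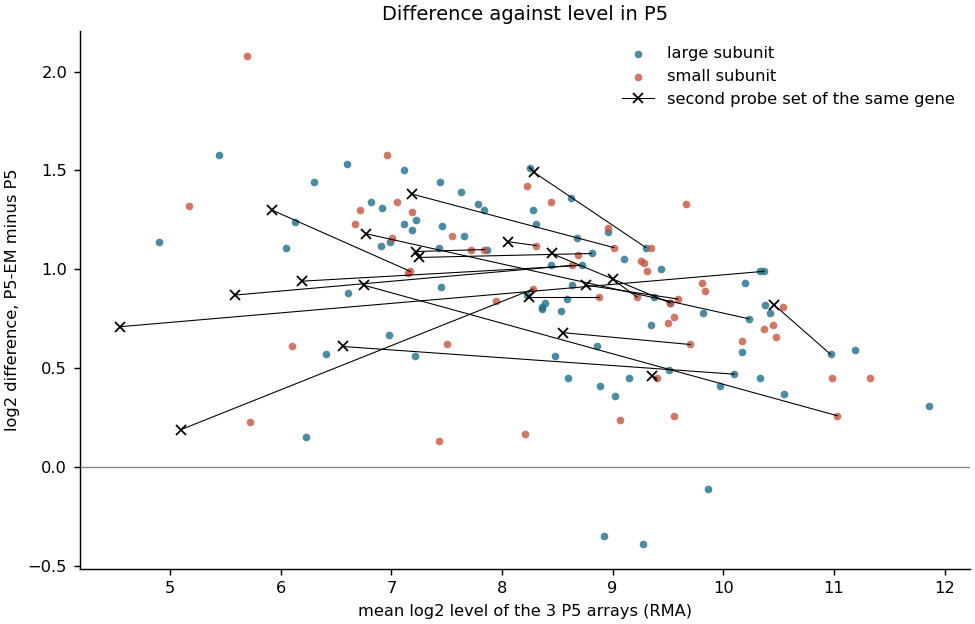
Difference between strains (P5-EM minus P5, log2, y axis) against the mean log2 P5 level (x axis) of the 127 ribosomal protein genes, with crosses joined by lines for the second probe set of 20 genes. The points descend from about 1.2 at low signals to about 0.6 at high signals, and the lines slope in the same sense for 13 of the 20 genes.

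Ribosome assembly factors were called lower and not higher in the limma fit, where 7.78% of all probe sets were called lower and 6.09% higher. Of 59 genes measured for assembly of the small subunit, 27 fell and 0 rose in limma, with a median difference of -0.76, and of 64 for the large subunit 31 fell and 0 rose, with a median of -0.90. Per P5-EM array their medians were -0.78, -0.70 and -0.51 for the small and -1.06, -0.86 and -0.60 for the large subunit. These medians were lowest on P5-EM replicate 1, although it gave the highest P5-EM value in 24 of the 59 and 19 of the 64 genes. The 58 calls became 0 without P5 replicate 2 or 3, 11 without P5 replicate 1, 8 without P5-EM replicate 2 and 93 without P5-EM replicate 1. Over all 5498 probe sets, the 763 calls in either direction moved as well. They became 0 without P5 replicate 2 or 3 and 140 without P5 replicate 1. Without P5-EM replicates 1, 2 and 3 in turn they became 1462, 99 and 1006. Mitochondrial ribosomal protein genes, which serve the separate ribosome of that organelle, had a median of 0.17 over 65 genes, with 10 called higher, beside 6.09% of all probe sets, and 0 lower. These 10 became 0 without each P5 array in turn and without P5-EM replicate 2, 6 without P5-EM replicate 3 and 23 without P5-EM replicate 1, beside the same counts over all probe sets. Their medians of -0.12, 0.25 and 0.41 put P5-EM replicate 1 lowest and replicate 3 highest, opposite to the cytosolic family.

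Chaperones that escort single ribosomal proteins had negative differences, whereas the client genes of the 4 with the lowest adjusted p had positive ones. Of 10 chaperone genes, 6 fell and 0 rose in limma, beside 7.78% and 6.09% of all probe sets, and the median was -0.74. SYO1, which carries Rpl5 and Rpl11, read 5.50, 5.02 and 5.05 in P5 and 4.10, 3.89 and 3.96 in P5-EM, and it fell by 1.21 on the log2 scale (SE 0.16, adjusted p = 0.0109). Its client genes RPL5, RPL11A and RPL11B stood at 0.59, 1.24 and 1.02. RRB1, which binds Rpl3, fell by 0.84 (SE 0.12, adjusted p = 0.0129), while RPL3 differed by 0.99 (SE 0.30, adjusted p = 0.0721). ACL4, which binds Rpl4, fell by 0.68 (SE 0.12, adjusted p = 0.0199), beside 0.31 and 1.20 for RPL4A and RPL4B. TSR4, which binds Rps2, fell by 0.58 (SE 0.11, adjusted p = 0.0250), while RPS2 differed by 0.81 (SE 0.30, adjusted p = 0.114), or 0.50 without P5-EM replicate 1. The opposition did not extend to SQT1, which binds Rpl10. SQT1 differed by -0.42 (SE 0.13, adjusted p = 0.0739, limma) and RPL10 by -0.11, or -0.36 without P5-EM replicate 1.

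Among 20 regulators of ribosomal protein genes, 1 rose and 0 fell in limma, a share below the 6.09% and 7.78% of all probe sets, and the median was -0.09. ABF1, a general factor that binds some of these promoters, rose by 0.76 (SE 0.17, adjusted p = 0.0341). IFH1, the coactivator of the family, read 5.62, 5.40 and 5.48 in P5 and 3.22, 4.54 and 4.87 in P5-EM. It lay below P5 on every array, most on P5-EM replicate 1, with a difference of -1.29 (SE 0.40, adjusted p = 0.0761), or -0.79 without P5-EM replicate 1 (adjusted p = 0.00611, limma). RAP1 differed by -0.11 (adjusted p = 0.699, and -0.28 without P5-EM replicate 1) and FHL1 by -0.20 (adjusted p = 0.323, and -0.13 without that array).

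Proteins that bind the finished ribosome had a median of 0.43 over 16 genes, with 2 called higher and 0 lower in limma, beside 6.09% and 7.78% of all probe sets. EGD1, a subunit of the complex that meets new peptides at the tunnel exit, rose by 0.85 (SE 0.16, adjusted p = 0.0218), and its partner EGD2 differed by 0.60 (SE 0.16, adjusted p = 0.0503). ARD1, the catalytic subunit of the main amino-terminal acetylase, rose by 1.00 (SE 0.20, adjusted p = 0.0259). ASC1, a stable part of the small subunit whose name falls outside the pattern, read 10.75, 10.15 and 10.04 in P5 and 12.01, 11.36 and 10.64 in P5-EM. Its arrays stood in the same order as the family medians and the strains overlapped, with a difference of 1.03 (SE 0.36, adjusted p = 0.101).

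Translation factors had a median of -0.01 over 36 genes, with 1 higher and 1 lower, shares below those of all probe sets. ANB1, the hypoxic form of the factor eIF5A, rose by 1.70 (SE 0.32, adjusted p = 0.0227, limma). GCD6, a subunit of the nucleotide exchange factor of initiation, fell by 0.82 (SE 0.18, adjusted p = 0.0322).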

How the data were processed

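Scans were converted with GCOS, and background correction, normalization and summary per probe set were done by RMA in Partek, with no pooling of replicates. The values deposited by the authors are log2 expression levels of 6 arrays, 3 per strain. The genome build is not given in the sources used here. Because normalization sets the arrays to a common scale, levels are relative and the total RNA per cell is unknown. Array number limits the precision.

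Probe sets given to 1 S. cerevisiae gene in the array annotation (5498, for 5449 genes) were fitted with limma 3.58.1 in R 4.3.3 (lmFit and eBayes, no covariates), with Benjamini-Hochberg adjustment over all 5498 and calls at an adjusted p of 0.05 or less. The fit was tested on simulated data with independent noise for each probe set and the same spread in both strains. The shared shifts of genes and the wider spread in P5-EM were not simulated, so that test does not cover them. A minus B within arrays was compared by an exact two-sided permutation test. Alternatives were the methods' t-test (adjusted over all 5498 probe sets, not only those with a 2-fold difference), quantile normalization, median centring and an intensity trend. Others were array weights, a replicate block, a filter on low values, other probe sets, ranks within arrays and leaving out each array.

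Genes were named by rule: the genes called, the 5 highest and 5 lowest changes in A minus B among pairs apart between strains, all genes of the stalk, ubiquitin fusion and 5S lists, the highest and lowest signal, and up to 4 genes of each list outside the family with the lowest adjusted p. RPL10, RPS17B, RPS19B, RPL3, RPS2, SQT1, RAP1, FHL1 and ASC1 were added after their values were seen. The members and all lists were chosen with earlier results of these data known, so no list was tested as a set.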

Additional observations from a re-analysis of the deposited data

How the results depend on the processing

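The positive direction of the median over the 127 ribosomal protein genes (0.92) held under every alternative run, with 0.63 to 1.27 when arrays were left out in turn, and no alternative called a ribosomal protein gene lower. The number called higher did depend on the processing. From 9 in the limma fit it went to 0 with the methods' t-test, 24 after quantile normalization and 124 with array weights, and from 0 to 112 over the arrays left out. Calls over all 5498 probe sets, in either direction, went from 763 to 163, 988 and 3222 in the same fits. They were 208 with the replicate block and ran from 0 to 1462 over the arrays left out. With the 2-fold limit the 7 calls in the family became 0, 22 and 66 with the t-test, quantile normalization and array weights. They ranged from 0 to 85 over the arrays left out. The share of all probe sets called higher with the 2-fold limit was taken in the limma fit only (1.33%). For these alternatives, a change in the family therefore cannot be told from a change in calls over all probe sets. The array weights ran from 0.103 (P5-EM replicate 1) to 15.3 (P5-EM replicate 2) and their estimation did not converge. Calls among assembly factors (58) became 12 with the methods' t-test, 112 with array weights and 15 with the replicate block, with 0 to 93 over the arrays left out. Calls among mitochondrial ribosomal protein genes (10) became 3 with the methods' t-test, 18 after quantile normalization, 39 with array weights and 0 with the replicate block, with 0 to 23 over the arrays left out.

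Large minus small subunit (0.01) was -0.10 with gene-specific probe sets only and -0.02 to 0.08 over the arrays left out. The median change in A minus B (0.03) was -0.01 with array weights, 0.07 with gene-specific probe sets only and -0.01 to 0.05 over the arrays left out, and the pairs apart between strains numbered 37 to 40. The difference of RPS7B turned to -0.07 without P5-EM replicate 2 (adjusted p = 0.802, limma) and was 0.34 without P5-EM replicate 3. Whether the replicate numbers pair the cultures was not settled. Deviations of same-numbered arrays correlated at -0.03, -0.28 and -0.02, and 0 of 3 P5 arrays correlated best with their own number. Within this family, however, replicate 1 was the highest P5 array in 116 genes and the highest P5-EM array in 116. Over all 5449 genes it was so in 2399 and 1936. Since the family moved almost as a block, its genes do not count separately here. With 3 arrays per strain these values cannot exclude pairing. With the number as a replicate block 6 ribosomal protein genes were called, 4 of them shared with the fit without it. The causes of these shifts were not tested.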

Other observations

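The array also carries control probe sets for ribosomal RNA, the partner of these proteins in the ribosome. Their median log2 signal for 18S RNA of the small subunit was 12.60, 12.55 and 12.71 on the P5 arrays and 12.67, 12.63 and 12.54 on the P5-EM arrays. For 25S RNA of the large subunit it was 12.31, 12.38 and 12.44 in P5 and 12.38, 12.40 and 12.43 in P5-EM. The strains overlapped for both, at signals where the array's highest probe sets lie between 13.55 and 13.63, so room for a higher signal was limited. The signal of the 3′ end of ACT1 minus that of its 5′ end, a measure of RNA integrity and labelling, was 0.11, -0.10 and 0.00 in P5 and 0.10, 0.05 and -0.07 in P5-EM, and these values overlapped as well.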
